A study of Mus musculus with 12 samples.

Results

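The colony stimulating factors and their receptors were followed through the 4 treatment groups: the ligand genes Csf1, Csf2 and Csf3 and the receptor genes Csf1r, Csf2ra, Csf2rb and Csf3r. These 7 genes were taken by symbol from the 19505 genes named on the array, and each had 1 probe set. RNA came from RAW 264.7 cells, a transformed mouse cell line with macrophage properties, and was read on Affymetrix arrays, 3 for each group. Lipopolysaccharide (LPS), a bacterial outer membrane component that activates macrophages, was given to every group at 500 ng/mL, for 6 hours at 37°C in 5% CO2. The groups were LPS alone, LPS with inulin (a plant fructan) at 500 µg/mL, LPS with TsSP at 50 µg/mL, and LPS with inulin and TsSP at those same concentrations. TsSP is the labels' own abbreviation, kept here as it stands for 1 of the agents in a series on helminth products. No array without LPS was used, so the values below describe differences among LPS-stimulated cultures and not the response to LPS itself. The labels do not state whether a group's arrays are separate cultures, so p-values reflect sample-to-sample spread that could be technical.

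CSF1 (M-CSF) binds CSF1R, a receptor tyrosine kinase, and maintains the survival and growth of macrophages. CSF2 (GM-CSF) binds a receptor made of a ligand-specific alpha chain, encoded by Csf2ra, and a beta chain, encoded by Csf2rb, which it shares with the receptors for IL-3 and IL-5 and which signals through JAK2 and STAT5. CSF3 (G-CSF) binds CSF3R, a receptor best known from neutrophils and their precursors. Macrophages are among the cells that make all of these ligands once Toll-like receptors are triggered.

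With TsSP the transcripts of all 3 ligands fell, by more than 4-fold for Csf1 and Csf2 and by just over 2-fold for Csf3. Csf2rb and Csf3r, 2 of the 4 receptor chains, rose by less than 2-fold, while Csf1r and Csf2ra did not pass the test. Inulin changed none of the 7 genes past the threshold, either alone or added to TsSP. The plot of the members by array shows each value.

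**Figure D1:**
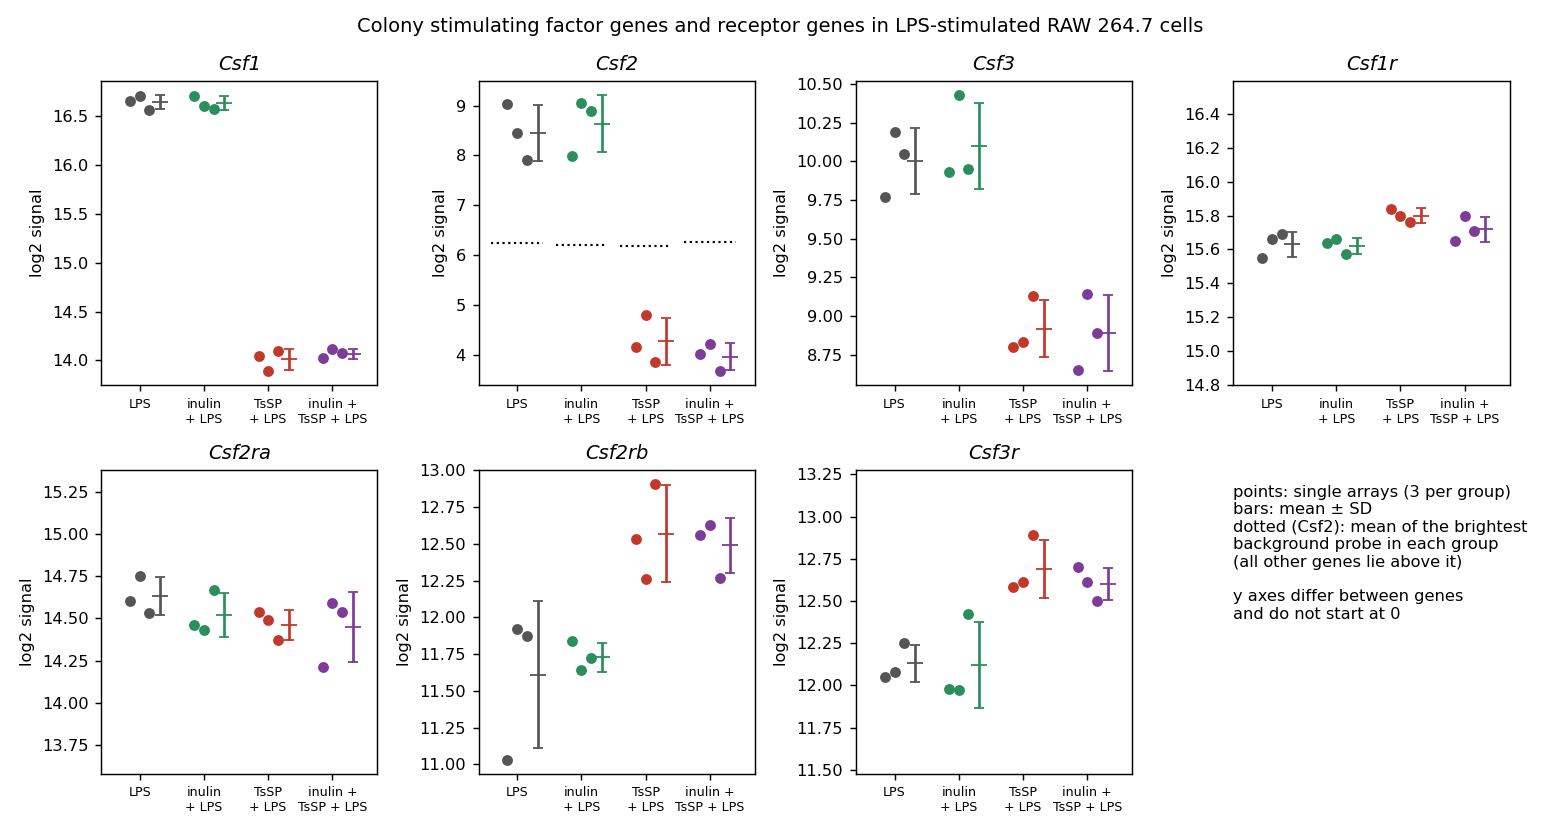
Log2 signal (y axis, as deposited) of the 7 genes on each of the 12 arrays (points) in the 4 treatment groups (x axis), with bars for the mean ± SD and, for Csf2, a dotted line at each group's mean background level. Csf1 drops from 16.56 or more without TsSP to 14.12 or less with it, and Csf2 passes below the background level on all 6 arrays with TsSP.

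The promoter windows of the members were looked up in RefSeq (GRCm38.p6) to show sequence from a member that fell, one that rose and one that did not pass the test. The windows span 250 bases before to 50 bases after the annotated start, and 4 of the 6 members searched had one: Csf1, Csf2, Csf2ra and Csf3r. For Csf3 and Csf2rb no sequence is given. Shown, 5′ to 3′ and ending at the base before the start, are Csf1 (chr3:107760470-107760719, minus strand), which fell, Csf3r (chr4:126024409-126024658, plus strand), which rose, and Csf2ra (chr19:61228419-61228668, minus strand), which did not pass the test, with capitals marking motif matches.
Csf1: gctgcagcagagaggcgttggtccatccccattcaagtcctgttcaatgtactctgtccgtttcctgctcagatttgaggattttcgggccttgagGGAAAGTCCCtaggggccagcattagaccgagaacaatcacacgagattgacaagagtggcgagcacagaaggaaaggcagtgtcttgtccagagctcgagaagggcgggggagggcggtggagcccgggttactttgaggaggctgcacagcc
Csf3r: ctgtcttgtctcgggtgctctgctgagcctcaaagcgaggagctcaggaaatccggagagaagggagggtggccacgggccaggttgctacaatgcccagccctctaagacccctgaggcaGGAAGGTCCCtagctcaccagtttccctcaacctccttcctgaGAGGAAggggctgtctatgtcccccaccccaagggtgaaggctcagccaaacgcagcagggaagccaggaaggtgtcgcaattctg
Csf2ra: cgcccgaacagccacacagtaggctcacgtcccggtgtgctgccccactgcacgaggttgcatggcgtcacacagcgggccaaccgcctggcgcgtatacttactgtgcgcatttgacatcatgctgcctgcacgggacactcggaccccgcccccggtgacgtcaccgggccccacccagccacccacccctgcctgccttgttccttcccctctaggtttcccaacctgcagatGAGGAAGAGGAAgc

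Motifs were searched on both strands as letters: the NF-kB motif, the AP-1 motif TGANTCA, the PU.1 motif GAGGAA, the STAT motif TTCNNNGAA, and the TATA box as TATAAA. The capitals in Csf1 are an NF-kB match on the reverse strand, 154 to 145 bases before the start. In Csf3r they are an NF-kB match on the reverse strand, 129 to 120 bases before the start, and a PU.1 match 86 to 81 bases before it. In Csf2ra they are a pair of adjacent PU.1 matches, 14 to 9 and 8 to 3 bases before the start, and no match overlaps another. Of 32817 windows of the same length, 6.93% held the NF-kB motif, 28.3% the PU.1 motif, 7.81% the AP-1 motif, 8.29% the STAT motif and 13.6% the TATA box. The Csf2 window held none of these letter strings, but its annotated start in this table lies upstream of the one commonly used for the gene, so the window is not shown and may not cover the usual promoter. A match of letters is a description of the window and was not tested for binding.

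The arrays were alike in scale, with a median log2 signal of 5.16 to 5.3 over all probe sets and r = 0.993 to 0.995 across genes between arrays of 1 group. LPS replicate 1 had the lowest median of the background probes, at 4.99 against 5.2 to 5.43 on the other arrays. The exon control probe sets had a median of 11.22 to 11.36 on arrays with TsSP and 11.00 to 11.21 on arrays without it. All 9 measured macrophage markers, Adgre1, Itgam, Lyz2 and Csf1r among them, lay above background on every array. The log2 of their summed linear signal, where the brightest markers weigh most, was 18.55 to 18.61 without TsSP and 18.76 to 18.81 with it. The markers did not all move with that sum: with TsSP against LPS alone 3 rose and 1 fell, Itgam rising 1.67-fold and Adgre1, a surface receptor of mature macrophages, falling 2.08-fold (adjusted p = 0.00137, limma). None of 6 neutrophil and mast cell markers and none of 7 lymphocyte markers lay above background on any array. Ccr7 was the only 1 of 5 dendritic cell markers above background on every array, and Col1a1, 1 of 5 fibroblast and epithelial markers, was above background only on inulin replicate 3, at 6.62. The part that the macrophage marker sum, the control medians and LPS replicate 1 have in the changes below was not tested, except where a value is given without that array or on the scale of those controls. In RNA from a whole culture, fewer cells transcribing a gene and less RNA per cell cannot be told apart.

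Csf1, the macrophage growth factor gene, had the smallest spread between replicates of the 3 ligands in every group. The log2 signal of Csf1 was 16.65, 16.70 and 16.56 on the arrays with LPS alone and 16.70, 16.60 and 16.57 with inulin. With TsSP it was 14.05, 13.89 and 14.10, and with inulin and TsSP 14.02, 14.12 and 14.08. The 6 arrays with TsSP all lay below the 6 without it, and within each set the inulin arrays overlapped those without inulin. The mean fell from 16.64 ± 0.074 to 14.01 ± 0.112 (SD, n = 3) with TsSP, a 6.16-fold fall (95% confidence interval 5.23 to 7.26; adjusted p = 5.15e-08, limma). Each adjusted p here comes from limma with Benjamini-Hochberg adjustment over all 19505 genes, and a gene is said to have risen or fallen when it is under 0.05.

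The fall in Csf1 was of similar size in the presence of inulin. Both agents together gave 5.93-fold less than LPS alone (adjusted p = 6.15e-08, limma), and TsSP added to inulin gave 5.87-fold less than inulin (adjusted p = 6.11e-08, limma). The comparisons of TsSP and of both agents with LPS alone share the LPS arrays. TsSP added to inulin uses the other 6 arrays than TsSP against LPS alone, although the spread in the model is pooled over all 12. The interaction, the difference between the TsSP effect with and without inulin, was 0.07 on the log2 scale with an interval of -0.27 to 0.40.

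Csf2, the GM-CSF gene, was measured above background only where TsSP was absent. Csf2 log2 signals were 9.03, 8.45 and 7.90 with LPS alone and 7.98, 9.05 and 8.90 with inulin. It was 4.16, 4.79 and 3.86 with TsSP, and 4.01, 4.22 and 3.67 with inulin and TsSP. All 6 values with TsSP lay below the background level, taken as the brightest of 23 background probes on the same array, which averaged 6.18 in the TsSP group and 6.26 with both agents. The groups with and without TsSP did not overlap, and the 6 arrays without TsSP spread over more than 1 log2 unit.

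Because the dimmer group was below background, the fall in Csf2 is given as a lower bound, with the background level in place of the dim signal. Csf2 was at least 4.85-fold lower with TsSP than with LPS alone (measured means 4.27 ± 0.473 and 8.46 ± 0.562, SD, n = 3; adjusted p = 7.42e-06, limma). The bound was at least 4.61-fold for both agents against LPS alone (adjusted p = 4.5e-06, limma) and at least 5.23-fold for TsSP added to inulin (adjusted p = 3.34e-06, limma). Whether Csf2 differed between TsSP alone and both agents cannot be read from these arrays, since both groups were below background.

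Csf3, the G-CSF gene, fell less. Its log2 signal was 9.77, 10.19 and 10.05 with LPS alone and 9.93, 10.43 and 9.95 with inulin. With TsSP it was 8.80, 8.83 and 9.13, and with inulin and TsSP 8.65, 9.14 and 8.89. The lowest array without TsSP (9.77) still lay above the highest with it (9.14). The fall was 2.12-fold with TsSP (interval 1.60 to 2.80; adjusted p = 0.00158, limma), 2.16-fold with both agents (adjusted p = 0.00128, limma) and 2.32-fold for TsSP added to inulin (adjusted p = 0.000758, limma). All 12 arrays were above background for Csf3, as they were for Csf1 and the 4 receptor genes.

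Csf1r, the receptor for CSF1 and a defining gene of the macrophage lineage, moved little. On the log2 scale it read 15.55, 15.66 and 15.69 with LPS alone, 15.64, 15.66 and 15.57 with inulin, 15.84, 15.80 and 15.76 with TsSP, and 15.65, 15.80 and 15.71 with both. The 3 TsSP arrays lay just above the 3 arrays with LPS alone, and the arrays with both agents overlapped those of either group. The log2 difference for TsSP against LPS alone was 0.17 (interval -0.06 to 0.39; adjusted p = 0.326, limma), which bounds a rise at 1.31-fold. With each array scaled to its exon controls that difference was -0.04, so Csf1r has no settled direction here.

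Csf2ra, the alpha chain that gives the GM-CSF receptor its specificity, had overlapping groups throughout. Log2 signals were 14.60, 14.75 and 14.53 with LPS alone, 14.46, 14.43 and 14.67 with inulin, 14.54, 14.49 and 14.37 with TsSP, and 14.21, 14.59 and 14.54 with both. The log2 difference was -0.16 for TsSP (interval -0.46 to 0.13; adjusted p = 0.5, limma), -0.18 for both agents against LPS alone (adjusted p = 0.449, limma) and -0.07 for TsSP added to inulin (adjusted p = 0.801, limma). The interval bounds a fall with TsSP at 1.37-fold on the deposited scale only, since with arrays scaled to their exon controls the difference was -0.37 (adjusted p = 0.12, limma).

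Csf2rb, the shared beta chain, was higher with TsSP. Its log2 signal was 11.03, 11.92 and 11.87 with LPS alone and 11.84, 11.64 and 11.72 with inulin. It was 12.53, 12.26 and 12.91 with TsSP, and 12.56, 12.63 and 12.27 with both agents. LPS replicate 1 was the lowest of the 12 arrays, and every array with TsSP lay above every array without it. The rise was 1.94-fold with TsSP (interval 1.36 to 2.79; adjusted p = 0.0146, limma) and 1.84-fold with both agents (interval 1.28 to 2.64; adjusted p = 0.0236, limma). TsSP added to inulin gave 1.68-fold (interval 1.17 to 2.41; adjusted p = 0.0509, limma), which missed the threshold.

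The calls on Csf2rb depended on single arrays. Without TsSP replicate 3 the TsSP difference was 0.79 on the log2 scale (adjusted p = 0.0644, limma), and without LPS replicate 1 it was 0.67 (adjusted p = 0.0361, limma). For both agents against LPS alone the call was lost without LPS replicate 1 (0.59, adjusted p = 0.0624, limma) and without replicate 1 or 2 of the group with both agents (0.84 and 0.81, adjusted p = 0.0719 and 0.0782, limma). With only the groups compared in the fit both calls were lost (adjusted p = 0.0679 for TsSP and 0.0691 for both agents, limma). TsSP added to inulin passed without LPS replicate 1, LPS replicate 2 or TsSP replicate 3 (adjusted p = 0.0111, 0.048 and 0.0458, limma). These arrays lie outside that comparison, so leaving them out moved the pooled spread and the adjustment but not the difference. TsSP added to inulin passed as well in 6 of the 9 other settings, with an adjusted p (limma) of 0.00143 to 0.0446. The fit of only the groups compared was among them (0.014). Csf2rb2, a near-identical neighbouring copy in the mouse genome, was not analysed here, and whether the Csf2rb probe set also reads it is not known.

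Csf3r, the receptor for G-CSF, was higher with TsSP by a smaller step. Its log2 signal was 12.05, 12.08 and 12.25 with LPS alone and 11.98, 11.97 and 12.42 with inulin. It was 12.58, 12.61 and 12.89 with TsSP, and 12.70, 12.61 and 12.50 with both agents. The 6 arrays with TsSP lay above the 6 without it. The rise was 1.48-fold with TsSP (interval 1.18 to 1.86; adjusted p = 0.0209, limma), 1.39-fold with both agents (adjusted p = 0.0481, limma) and 1.40-fold for TsSP added to inulin (adjusted p = 0.0487, limma).

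These Csf3r calls lay close to the threshold. The TsSP call was lost without LPS replicate 1 (0.53 on the log2 scale, adjusted p = 0.0637, limma), LPS replicate 2 (0.55, adjusted p = 0.0607) or TsSP replicate 3 (0.47, adjusted p = 0.0886), and on the scale of the exon controls (0.36, adjusted p = 0.12). The calls for both agents and for TsSP added to inulin were each lost in 10 of 12 fits without 1 array, and stood only without TsSP replicate 3 or inulin replicate 3. In those fits the adjusted p (limma) reached 0.138 for both agents, without replicate 1 of that group, and 0.163 for TsSP added to inulin, without inulin replicate 2. Over the 12 fits the log2 difference ran from 0.43 to 0.54 for both agents and 0.40 to 0.63 for TsSP added to inulin. Leaving out an array of a group outside the comparison cannot change that difference, and moves only the pooled spread and the adjustment. Of the 9 other settings, 6 ended the call for both agents and 4 that for TsSP added to inulin, with an adjusted p (limma) of up to 0.23 and 0.123, both on the scale of the exon controls.

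**Figure D2:**
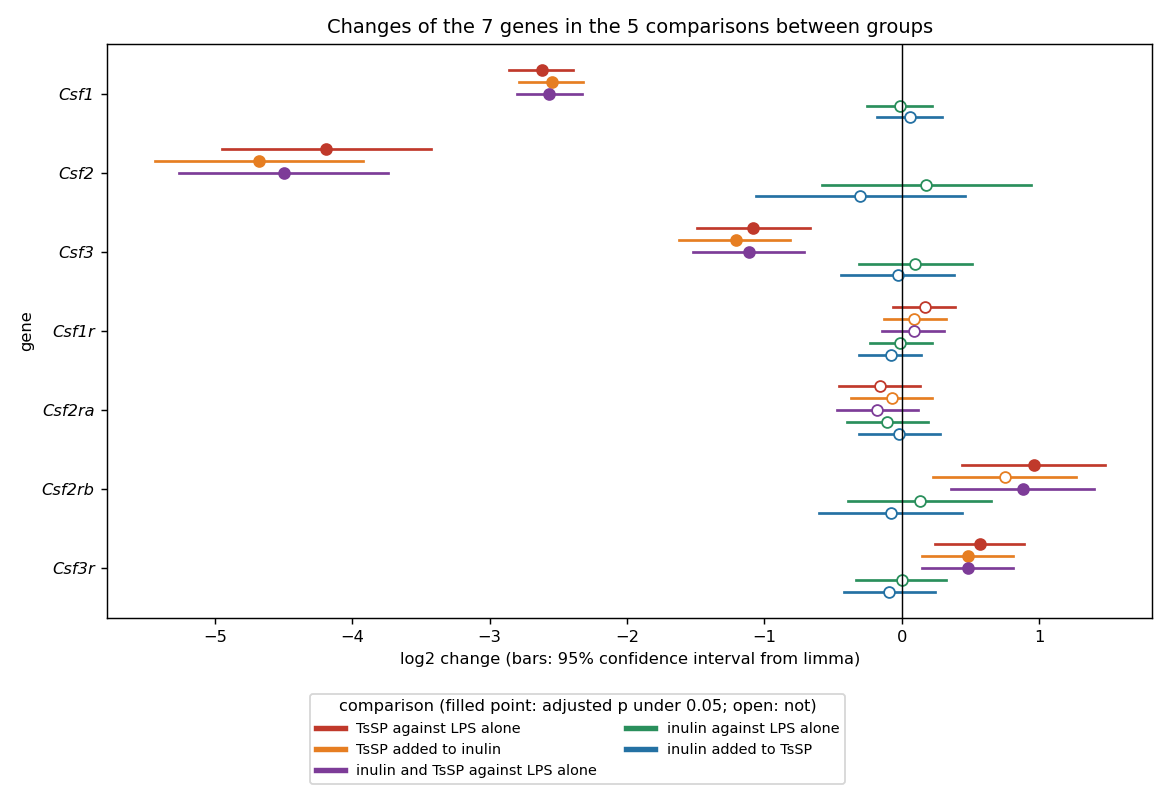
Log2 difference with its 95% confidence interval (x axis) of the 7 genes (y axis) in the 5 comparisons between groups (colours), where filled points have an adjusted p under 0.05 and open points do not. The 3 comparisons with TsSP put Csf1, Csf2 and Csf3 left of 0, while the intervals of the inulin comparisons all cross 0.

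Of the 7 genes, 2 rose and 3 fell with TsSP against LPS alone, where 11% of all 19505 genes rose and 7.08% fell. With both agents against LPS alone 2 rose and 3 fell, where 10.3% of all genes rose and 7.3% fell. For TsSP added to inulin 1 rose and 3 fell, where 8.66% of all genes rose and 7.99% fell. Arrays of the 2 groups did not overlap for 6 of the 7 genes with TsSP against LPS alone, all but Csf2ra, and for 32.7% of all genes. The median log2 difference over all genes in that comparison was 0.02, and -0.19 on the scale of the exon controls, beside which the falls in the ligands and the rise in Csf2rb kept their direction. The split of all called genes in it was 2144 higher and 1381 lower as deposited, 1693 and 1631 after quantile normalization, and 1219 and 2609 on the scale of the exon controls.

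Inulin was compared with LPS alone, and inulin added to TsSP with TsSP alone, to see its own effect. None of the 7 genes passed limma's threshold in either comparison or in the interaction, and none reached an unadjusted p under 0.05 there. Over all genes 0% were called in each of these 3 comparisons, with 1143, 971 and 1089 genes at an unadjusted p under 0.05. The intervals bound what could have been missed. For inulin against LPS alone the log2 interval was -0.25 to 0.22 for Csf1, -0.31 to 0.51 for Csf3, -0.23 to 0.22 for Csf1r and -0.40 to 0.19 for Csf2ra. It was wider for Csf2rb, at -0.39 to 0.65, and widest for Csf2, at -0.58 to 0.94, so that a rise of up to 1.92-fold in Csf2 lies within it. For Csf3r it was -0.33 to 0.32.

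For inulin added to TsSP the log2 interval was -0.18 to 0.29 for Csf1, -0.44 to 0.38 for Csf3, -0.31 to 0.14 for Csf1r, -0.31 to 0.28 for Csf2ra, -0.60 to 0.44 for Csf2rb and -0.42 to 0.24 for Csf3r. The interaction interval was -0.71 to 0.44 for Csf3 and -0.94 to 0.53 for Csf2rb. For Csf2 it was -1.56 to 0.59, with the TsSP groups below background.

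By mean level, the groups without TsSP stood above the groups with it for all 3 ligands. For Csf2rb the order from high to low was TsSP, both agents, inulin and LPS alone, and the step from both agents to inulin lay at the threshold (adjusted p = 0.0509, limma, and passed in 6 of 9 other settings), while the other steps did not pass. For Csf3r the order was TsSP, both agents, LPS alone and inulin, and only the step from both agents to LPS alone passed. For Csf1r and Csf2ra no pair of groups tested differed past the threshold.

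Genes that act with the members were described from lists of the pathway, by how many of each list's measured genes passed the same test with TsSP against LPS alone. The shares to read these counts against are those over all genes, 11% higher and 7.08% lower. In several of the short lists a count of 1 or 2 genes is near them. Of the 19505 genes, 9022 were above background in at least 1 group, against 23 of 24 measured kinases and adaptors and 16 of 16 feedback and target genes. The share called among those 9022 genes is not given here, so an excess over the all-gene shares is not a result about a list. Among related ligands and receptors, 12 of 14 listed genes were measured, only 3 of them above background in at least 1 group, and 0 rose and 2 fell. Kitl, the ligand of the KIT receptor, fell 2.53-fold (adjusted p = 6.9e-05, limma). Il3, whose product shares the Csf2rb chain, was below background on all arrays, so its call (adjusted p = 0.0471, limma) has no fold, and it was lost in 9 of 12 fits without 1 array (up to 0.164). Il3ra, the IL-3 receptor alpha chain, and Flt3l, a dendritic cell growth factor, fell by 1.85-fold and 1.69-fold for TsSP added to inulin, and had log2 differences of -0.10 and -0.25 for TsSP against LPS alone (adjusted p = 0.8 and 0.452, limma). The Flt3l call was lost without inulin replicate 2 or replicate 1 or 2 of both agents (up to 0.0762). No gene passed the test of the interaction.

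Receptor-proximal kinases and adaptors carry the signal from these receptors into the cell. Of 24 measured genes of this list, 7 rose and 3 fell, with 4 to 7 and 2 to 6 over the other settings and the fits without 1 array. The 7 include Gab1, an adaptor below background on all arrays whose call was lost in 9 of 12 fits without 1 array (adjusted p up to 0.149, limma), and Tyrobp, lost without replicate 2 or 3 of LPS alone or of TsSP (up to 0.129). Inpp5d, which encodes the inositol phosphatase SHIP1, a brake on PI3-kinase signalling, rose 3.97-fold (adjusted p = 5.54e-06, limma). Fgr, a Src family kinase of myeloid cells, rose 2.41-fold, and Shc1, an adaptor to the RAS pathway, rose 1.70-fold. Tyk2, a Janus kinase, fell 1.65-fold, Pik3r1, the regulatory subunit of PI3-kinase, fell 1.77-fold, and Jak2, the kinase bound to the Csf2rb chain, fell 1.37-fold. The Jak2 call (adjusted p = 0.0272, limma) was lost without any 1 of LPS replicates 2 and 3 or the 3 TsSP arrays, with an adjusted p of up to 0.1.

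STAT factors are the transcription factors that Janus kinases activate. Of 6 measured, 2 rose and 1 fell. Stat6 rose 1.83-fold (adjusted p = 0.000242, limma) and Stat2, which serves interferon signalling, fell 1.67-fold (adjusted p = 0.000512, limma). Stat3, the main mediator of G-CSF signals, rose 1.27-fold (adjusted p = 0.0331, limma), a call lost without any 1 of the LPS or TsSP arrays (adjusted p up to 0.106). Stat5a, a mediator of GM-CSF signals, had a log2 difference of 0.36 (adjusted p = 0.125, limma).

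The list of feedback inhibitors and STAT5 target genes holds genes that other cytokines also regulate, and it states no direction of response. Of 16 measured, 4 rose and 8 fell, with 1 to 4 and 7 to 8 over the other settings and the fits without 1 array. Myc was among those that fell, and its call was lost in 11 of 12 fits without 1 array (adjusted p up to 0.121, limma). Cish, a STAT5-induced inhibitor of cytokine receptors, was at least 3.06-fold lower (adjusted p = 2.68e-08, limma). Osm, the cytokine oncostatin M, fell 3.49-fold, Socs1, an inhibitor of Janus kinases, fell 3.47-fold, and Pim1, a survival kinase, fell 2.54-fold. Of the 4 that rose, Bcl6, a transcriptional repressor, rose 2.07-fold and Pim3 1.58-fold, while Pim2 rose 1.37-fold and Socs3 1.29-fold. The Socs3 call was lost in 10 of 12 fits without 1 array (adjusted p up to 0.13, limma), the Pim2 call without replicate 1 or 2 of LPS alone or of TsSP (up to 0.0947), and the Pim3 call without LPS replicate 2 (0.0507).

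Transcription factors of the macrophage lineage include those that drive Csf1r. Of 16 measured, 3 rose and 5 fell. Irf8, a lineage factor of monocytes, rose 3.69-fold, Ets1 was at least 1.5-fold higher, and Cebpe, a factor of granulocyte maturation, rose 1.61-fold. Egr1, an immediate early factor, fell 5.64-fold, Mitf, a CSF1-regulated factor of osteoclasts, fell 3.09-fold, and Klf4, a monocyte factor, fell 2.63-fold. Runx1 and Maf fell 1.54-fold and 1.36-fold. The Maf call was lost in 10 of 12 fits without 1 array (adjusted p up to 0.147, limma), that on Runx1 without TsSP replicate 3 (0.0502), and that on Cebpe without LPS replicate 1 or TsSP replicate 1 (up to 0.0631). Spi1, which encodes PU.1, the main activator of Csf1r, had a log2 difference of 0.13 (adjusted p = 0.463, limma).

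NF-kB and AP-1 subunits switch on cytokine genes, those of the colony stimulating factors among them, but the list also holds inhibitors and cofactors. Of 16 measured, 6 rose and 6 fell. The counts ran from 4 to 6 and from 5 to 8 over the other settings and the fits without 1 array. Nfkbia, which encodes an NF-kB inhibitor, was among those that fell, and Jun among those that rose. Their calls were each lost in 4 of 12 fits without 1 array (adjusted p up to 0.0685 and 0.127, limma). Rel, which encodes c-Rel, fell 2.86-fold (adjusted p = 5.9e-06, limma), Nfkbiz, an inducible NF-kB cofactor, fell 2.59-fold, and Atf3, an AP-1 family repressor, fell 2.38-fold. Fos, an AP-1 subunit, rose 4.00-fold (adjusted p = 1.19e-05, limma). Rela, the p65 subunit, had a log2 difference of -0.27 (adjusted p = 0.218, limma).

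Factors of mRNA decay and stability act on cytokine messages, and some of those listed bind AU-rich ones such as that of Csf2. Of 12 measured, 2 rose and 3 fell. Zfp36l2 and Zfp36l1, relatives of tristetraprolin, rose 3.61-fold and 1.89-fold. Zfp36, which encodes tristetraprolin itself, fell 1.62-fold, Zc3h12c fell 1.73-fold and Rc3h1, which encodes roquin-1, fell 1.37-fold. Elavl1, which encodes the stabilizing protein HuR, had a log2 difference of -0.13 (adjusted p = 0.541, limma).

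The list of proteases that shed CSF1 or its receptor from the cell surface also holds genes that are not shedding proteases themselves. These are Rhbdf1, Rhbdf2, Furin and Timp3. Of the 7 measured genes, 2 rose and 2 fell, all by less than 1.5-fold. Rhbdf2, which encodes iRhom2, the partner that brings ADAM17 to the surface, fell 1.48-fold, and Adam17 fell 1.32-fold. Adam9 and Adam10 rose 1.35-fold and 1.33-fold, and the Adam10 call was lost in 10 of 12 fits without 1 array (adjusted p up to 0.147, limma). The Adam17 call was lost without LPS replicate 3 or TsSP replicate 1 or 3 (up to 0.0651), and the Adam9 call without LPS replicate 1 or TsSP replicate 1 or 3 (up to 0.0601).

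Genes listed as responsive to GM-CSF in macrophages and dendritic cells moved in both directions, and the list states no direction of response. Of 13 measured, 3 rose and 4 fell. Bhlhe40, a transcription factor, rose 6.12-fold (adjusted p = 4.15e-06, limma). Dcstamp, a fusion protein of osteoclasts and dendritic cells, was at least 1.77-fold higher, and Cxcr4, a chemokine receptor, rose 2.14-fold. Ccl22 and Ccl17, ligands of CCR4, were 3.68-fold and at least 1.88-fold lower, Kmo, an enzyme of tryptophan breakdown, was at least 1.64-fold lower, and Fabp4, a fatty acid binding protein, fell 2.17-fold. The Cxcr4 call was lost without LPS replicate 2 or 3 or TsSP replicate 1 (adjusted p up to 0.0616, limma), and the Fabp4 call without LPS replicate 1 or TsSP replicate 2 or 3 (up to 0.0732).

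The median log2 difference of these lists lay between -0.32, for the protease list, and 0.34, for the STAT factors, beside 0.02 over all genes. With TsSP added to inulin, measured on the other 6 arrays, the counts were 0 higher and 3 lower for related ligands and receptors, 5 and 3 for the proximal kinases, 2 and 1 for the STAT factors, and 3 and 8 for the feedback and target genes. They were 2 and 4 for the lineage factors, 4 and 7 for the NF-kB and AP-1 subunits, 2 and 2 for the decay factors, 2 and 1 for the proteases, and 4 and 4 for the GM-CSF-responsive genes, where 8.66% of all genes rose and 7.99% fell. Several of these counts turn on single arrays: over the fits without 1 array and the other settings they ran from 1 to 5 lower for the kinases, 1 to 2 higher for the STAT factors, and 0 to 3 higher and 0 to 2 lower for the proteases. Stat5a, Gab2 and Adam9 were each lost in 10 of 12 fits without 1 array and Adam10 in 9. Cish was at least 2.82-fold lower there, Socs1 fell 5.54-fold, Rel fell 2.83-fold and Inpp5d rose 3.97-fold. No gene of these lists was called in either inulin comparison, where 0% of all genes were.

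**Figure D3:**
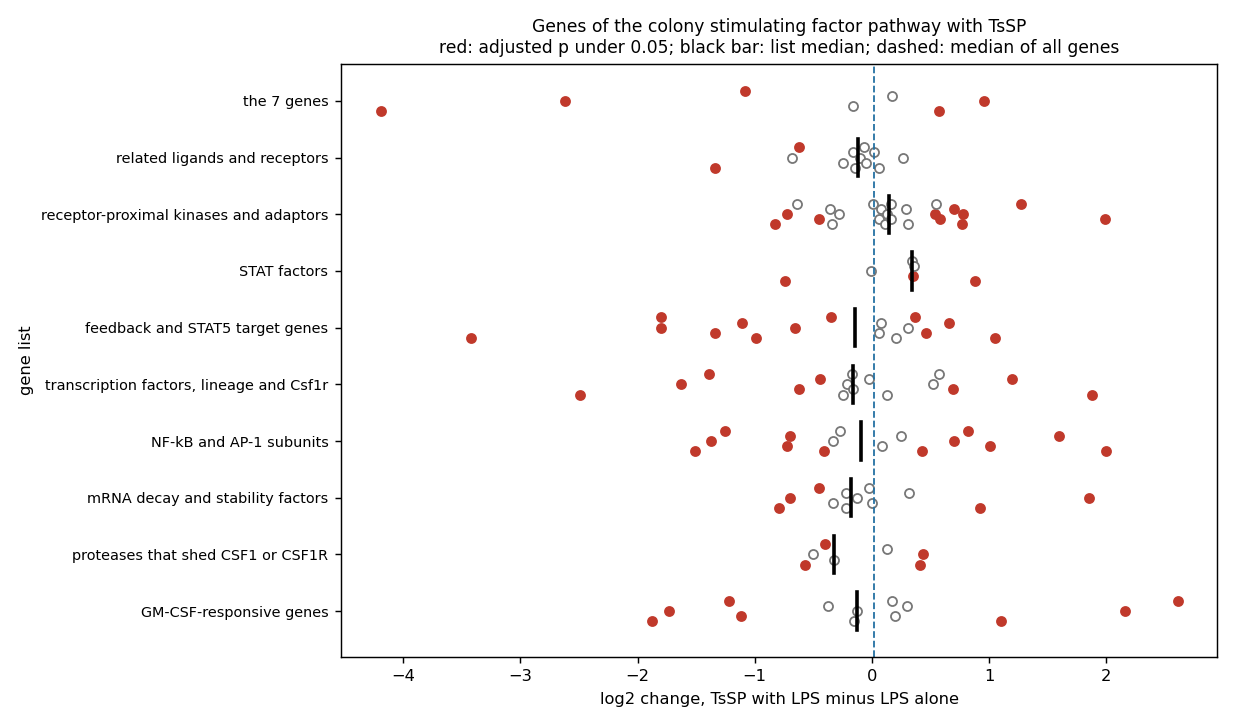
Log2 difference of TsSP against LPS alone (x axis) for the 7 genes and for each pathway list (y axis), 1 point per measured gene, red where the adjusted p is under 0.05, with each list's median as a black bar and the median of all genes as a dashed line. The feedback and STAT5 target genes hold 8 of 16 points that fell and 4 that rose.

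The genes whose pattern over the 12 arrays was most like that of each member were found among 8737 genes above background in at least 1 group, by the root mean square (RMS) difference of log2 values centred on each gene's own mean. For Csf1 they were Fzd5, a Wnt receptor, at 0.113, Tnfsf10, the death ligand TRAIL, and the cytokine gene Tnf, both at 0.135. For Csf2 the nearest were the chemokine genes Ccl20, at 0.321, and Cxcl9, at 0.355, and Kynu, an enzyme of tryptophan breakdown, at 0.399. On the arrays with TsSP Csf2 and Ccl20 were below background on all 6 and Kynu on 5, so these distances rest partly on signals that cannot be read, and their ranking is uncertain. The SD of Csf2 within groups was 0.275 to 0.576, against 0.051 to 0.112 for Csf1. For Csf3 they were Fam20c, a secretory pathway kinase, at 0.128, Slc49a4 at 0.152 and Itga5, an integrin chain, at 0.152.

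With TsSP against LPS alone, Tnf fell 6.09-fold and Tnfsf10 6.48-fold, beside 6.16-fold for Csf1. Cxcl9 fell 23.3-fold and Kynu was at least 12.0-fold lower, while Itga5 fell 2.05-fold, beside 2.12-fold for Csf3. Among receptors, Csf2rb was nearest to Msrb1 at 0.174, Nfil3, a basic leucine zipper factor, at 0.179 and Praf2 at 0.179. Csf3r was nearest to Bach1, a repressor of haem oxygenase, at 0.112, and to Mid1ip1 and Tifa, both at 0.115. Csf1r (Mia2 at 0.040, Slc38a1 at 0.043, Atp6ap1 at 0.044) and Csf2ra (Atl3 at 0.066, Celf1 at 0.076, Cramp1l at 0.083) were nearest to genes that also stayed short of the threshold with TsSP. Likeness here is of the pattern over these arrays, which is dominated by the TsSP contrast in the genes that moved. Similar folds, and a shared lack of a call, therefore follow from how these genes were picked and are not a separate result.

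**Figure D4:**
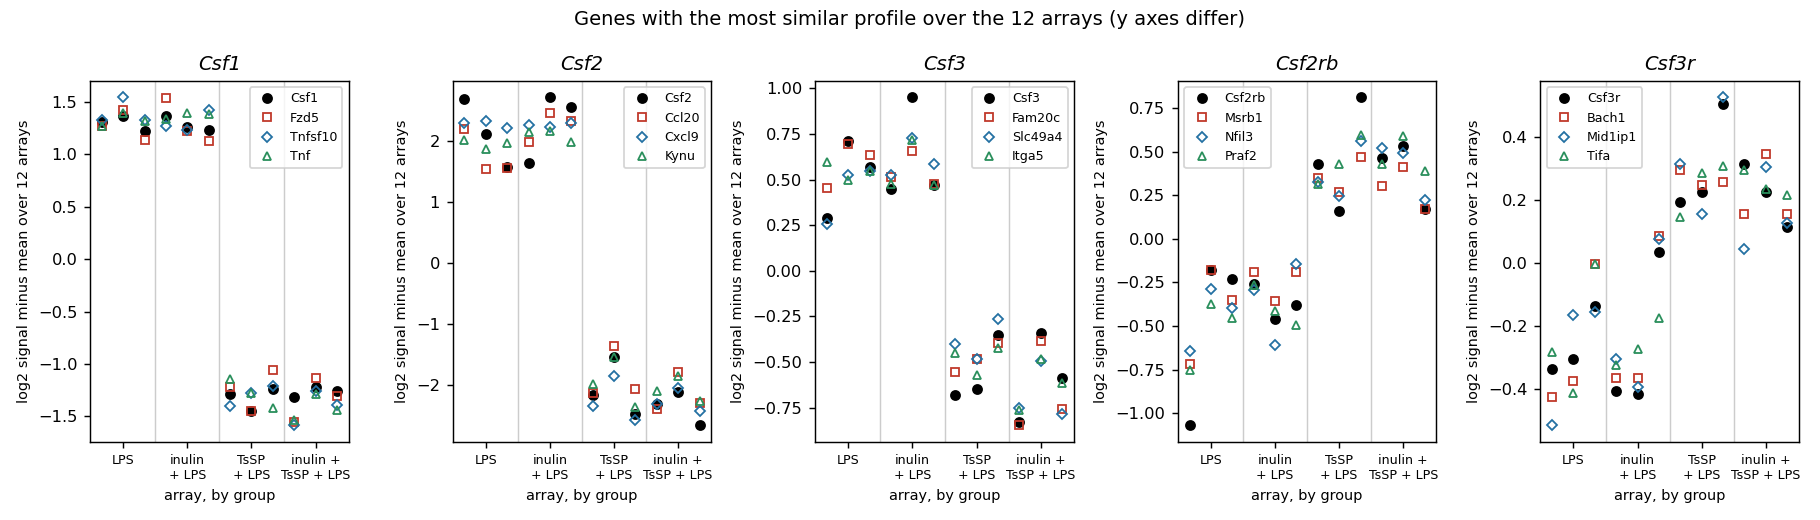
Log2 signal centred on each gene's own mean (y axis) on the 12 arrays (x axis, grouped by treatment) for the 5 members that moved with TsSP, drawn as filled black points, and for the 3 genes nearest to each, drawn as open points. Csf1 and Tnf step down together on the 6 arrays with TsSP, with an RMS difference of 0.135.

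The nearest measured protein-coding genes on either side of each member, a choice made after values had been seen, were read for comparison in the RefSeq gene order. P4ha2, beside Csf2, rose 2.65-fold with TsSP (adjusted p = 3.21e-05, limma), while Csf2 was at least 4.85-fold lower and Il3, on its other side, was below background. Ahcyl1, beside Csf1, had a log2 difference of -0.22 (adjusted p = 0.234, limma), and Eps8l3, on the other side, was below background. Psmd3 and Med24, the proteasome and mediator subunit genes that flank Csf3, had log2 differences of 0.29 and 0.25, neither past the threshold. Ncf4, a subunit of the phagocyte NADPH oxidase beside Csf2rb, rose 1.47-fold (adjusted p = 0.00551, limma), beside 1.94-fold for Csf2rb. Mrps15, beside Csf3r, had a log2 difference of 0.39 (adjusted p = 0.0729, limma), and Grik3, on its other side, was below background.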

How the data were processed

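Expression was measured on 12 Affymetrix mouse arrays. The authors deposited log2 values per probe set; base 2 was inferred from their range (1.32 to 18.9), and how they were corrected and normalized is not given in the sources used here. Values were used as deposited. Of 28846 probe sets, 19572 carry 1 symbol in the platform annotation, all matched to RefSeq (GRCm38.p6, names only), and for 55 genes the probe set with the highest mean was kept.

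Contrasts came from 1 limma model with a mean per group (limma 3.58.1, R 4.3.3; 8 residual and 3.35 prior degrees of freedom), two-sided, adjusted by Benjamini-Hochberg over 19505 genes, with code tested on simulated data. "At least N-fold" sets the brighter mean against, per array, the higher of background and the dim signal, and no fold is given with both groups below background. The number of arrays limits the precision.

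The members and lists were chosen with earlier results of these data known. Named genes are the members, the 4 of each list with the smallest F test p, the called genes of a list where 5 or fewer were called in a direction, and the 3 nearest profiles per member, without predicted genes. Spi1, Rela, Elavl1 and the gene neighbours were added after values had been seen. Some genes of the lists and markers are not analysed here. Alternatives were other scalings, filters, variance models, array weights, a replicate block and leaving out each array. Leaving out an array of a group outside a comparison leaves the difference there unchanged and moves only the pooled spread and the adjustment. Plots used matplotlib 3.10.9 in Python 3.11.15.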

Additional observations from a re-analysis of the deposited data

How the results depend on the processing

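The calls on Csf1, Csf2 and Csf3 with TsSP held in all 3 comparisons under the 9 other settings and the 12 fits without 1 array, while those on Csf2rb and Csf3r did not, as given beside them. The count of members called for both agents against LPS alone was 5, and 3 with only the groups of the comparison in the fit. Without 1 array it ranged from 3 to 5 in each TsSP comparison. Same-numbered arrays did not deviate together (r of -0.09 to 0.1 over 18 pairs, 1 of them over 0.1, and 3 of 12 arrays closest to their own number). The replicate block gave 5 members for TsSP against LPS alone, 4 for both agents and 3 for TsSP added to inulin, and moved the calls over all genes from 3525, 3433 and 3248 to 3203, 3093 and 2941. On the scale of the exon controls Csf1r turned to -0.04 for TsSP, -0.11 for both agents, -0.01 for TsSP added to inulin and 0.03 for the interaction, and Csf3r to 0.01 for the interaction. That scaling split the calls over all genes into 1138 higher and 2592 lower for both agents (2010 and 1423 as deposited) and 1188 and 2021 for TsSP added to inulin (1689 and 1559 as deposited). After quantile normalization the former split was 1632 and 1706, and Csf3 turned to 0.02 for inulin added to TsSP. The remaining turns of sign were in differences that no test called. Without 1 array, the log2 differences for inulin against LPS alone ran from -0.05 to 0.02 for Csf1 and Csf1r, -0.10 to 0.51 for Csf2, -0.06 to 0.19 for Csf3, -0.16 to 0.28 for Csf2rb and -0.15 to 0.07 for Csf3r. For inulin added to TsSP they ran from -0.01 to 0.10 for Csf1, -0.16 to 0.09 for Csf3, -0.09 to 0.10 for Csf2ra, -0.24 to 0.09 for Csf2rb and -0.15 to 0.01 for Csf3r. The interaction ran from -0.26 to 0.03 for Csf3, -0.36 to 0.08 for Csf2rb and -0.16 to 0.06 for Csf3r, and TsSP added to inulin from -0.14 to 0.05 for Csf2ra. Against the median background probe in place of the brightest, 6 members again lay above background on all arrays. The cause of these shifts was not tested. Signals of Csf2 with TsSP lie below background, which limits that fall to a bound.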
